A study of Mus musculus with 10 samples.

Results

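Ion channels and cation pumps set the electrical state of a neuron, and their RNA was followed here in the midbrain of arthritic and control mice. The group was chosen with earlier results of these data known, and its probes by a rule on gene names. A probe was taken where the platform table gives it a single gene symbol that begins with Kcn, Cacn, Clcn, Hcn, Scn and a digit, Trpc, Trpm or Trpv and a digit, or the Atp1a, Atp1b, Atp2a or Atp2b of the pumps. Of the 10080 probes on the array, 92 met this rule, for 87 of the 8726 genes that had a probe with a single symbol. The 92 probes are 48 of potassium channels, 16 of calcium channels, 8 of the chloride channel family, 7 of pumps, 6 of sodium channels, 5 of TRP channels and 2 of Hcn channels. The names also caught some genes that form no channel themselves. Trpc4ap encodes a protein that binds a TRP channel, Kcnmb4os1 is an RNA from the strand opposite Kcnmb4, and the Kcnip genes encode cytosolic partners of channels.

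The mice were DBA/1 males of 8 weeks, from a strain used for collagen-induced arthritis. The arthritic group received 100 ul of collagen in 100 ul of complete Freund's adjuvant into the skin, and the control group 200 ul of the adjuvant alone. LPS, a bacterial endotoxin, was given to both groups at day 24, so the controls had met adjuvant and endotoxin too. The labels put death at 31, with an unclear unit, and the sources used here do not say whether RNA of several animals was pooled.

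Each of the 10 two-colour arrays carried RNA of both groups, one dyed with Cy3 and the other with Cy5. The arrays form 5 dye-swap pairs, in which the dyes of the RNAs are exchanged. A number in the array titles was read as the replicate. This gives 3 replicates, with 2 pairs each in replicates 1 and 2 and 1 pair in replicate 3. Pairs that share the number were taken as repeats of the same RNAs, which is an assumption. Values below are log2 ratios of collagen over control, averaged over a pair and then over the pairs of a replicate, with n = 3 replicates. The design text of the series calls the replicates biological. The direction is likely rather than stated: channel A of the scanner files was taken as the Cy3 channel, following the labels' order. Were it Cy5, every sign would turn. In RNA from a whole tissue, fewer cells of a type and less RNA per cell cannot be told apart.

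Neurons keep a potassium gradient outward and a sodium and calcium gradient inward by means of ATP-driven pumps. Voltage-gated sodium and calcium channels depolarise the cell when they open, and potassium channels repolarise it and set its resting potential. Hcn channels open on hyperpolarisation and carry the pacemaker current, which with low-threshold calcium channels and L-type calcium channels shapes rhythmic firing, including that of midbrain dopamine neurons. Most of these channels join a pore-forming subunit with auxiliary subunits that alter its gating or its transport to the membrane.

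Detection limited what could be compared. A probe had a ratio on an array only where both channels gave a signal, and it was tested only where all 3 replicates had a ratio. Of the 92 channel and pump probes, 38 (41.3%) were tested, for 37 genes, beside 41.1% of all probes. A further 32 had a ratio in 2 replicates, 13 in 1 replicate and 9 in none. Fewest were measured in replicate 3, which had 1 pair where the others had 2: 77 of the probes in replicate 1, 71 in replicate 2 and 43 in replicate 3. Single arrays of replicate 3 were not the poorest, with 55 and 56 of the probes, beside 46 and 48 in the first pair of replicate 2. Of the 920 spots that the 92 probes make on 10 arrays, 66.5% had a ratio, against 61.1% of all spots. In 141 of the 920 spots channel A alone gave a signal in every scan and in 4 channel B alone. Among these spots channel B alone was thus lost far more often than channel A alone. The same count over all probes is not given here, so this is not read as a trait of the channel and pump probes. A missing ratio was not read as absence of the gene, and no missing value was filled in.

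The name groups differed in how many probes could be tested. Of the chloride channel probes 5 of 8 were tested, of the pump probes 4 of 7, of the calcium channel probes 8 of 16, of the potassium channel probes 20 of 48 and of the Hcn probes 1 of 2. None of the 6 sodium channel probes and none of the 5 probes of the TRP group had a ratio in all 3 replicates. Sodium channels drive the upstroke of the action potential, and most TRP channels are cation channels that respond to chemical or physical stimuli, so neither kind entered the test. The pump probes with a ratio were of auxiliary subunits of the sodium pump and of calcium pumps. The catalytic alpha subunit was represented by Atp1a4, an isoform known from sperm, which had a ratio in 1 replicate.

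**Figure D1:**
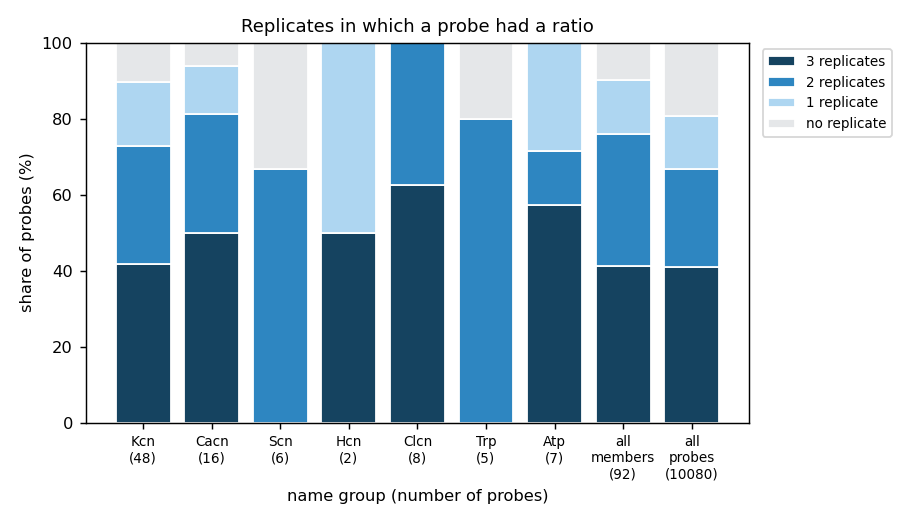
Share of probes (vertical axis, percent) with a ratio in 3, 2, 1 or no replicates, for each name group, for all 92 channel and pump probes and for all 10080 probes (number of probes under each bar). The dark part, tested probes, is 41.3% of the channel and pump probes and 41.1% of all probes, and is missing for Scn and Trp.

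The main comparison asked which channel and pump genes differed between arthritic and control midbrain. None passed the test. The genes farthest from 0 were lower in the collagen group: Hcn2, a pacemaker channel, and Cacna1i and Cacna1h, low-threshold calcium channels. Kcna2, a potassium channel of axons, stood farthest on the other side. With limma and Benjamini-Hochberg adjustment over all 4139 tested probes, 0 of the 38 members and 0 of all tested probes (a background of 0%) had an adjusted p under 0.05, and the smallest adjusted p among the members was 0.827. At an unadjusted p under 0.05 there were 3 of 38 members, all lower (Cacna1i, Hcn2 and Cacna1h), where 3.94% of all tested probes passed, 2.73% lower and 1.21% higher. A mean ratio over 0.25 in size was found in 4 members (these 3 and Kcna2), beside 5.99% of all tested probes. As a group the 38 did not lean one way. Their mean ratio was above 0 in 20 and below 0 in 18, while 59.2% of all tested probes were below 0. Their median was 0.01, beside -0.025 for all tested probes. The medians within single replicates were -0.01, -0.001 and -0.03, all below the median of the means. All 3 replicates shared a sign in 13 of 38 members, 4 higher and 9 lower, beside 29.7% of all tested probes. Of the latter, 8.92% of the whole were higher in all 3 and 20.8% lower, against 10.5% and 23.7% of the members.

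With the main processing, the limma intervals bounded most of the ratios, and intervals of other settings are not given here. The 95% interval from limma lay within a 2-fold change for 37 of 38 members, Hcn2 being the exception, and within a 1.5-fold change for 36, with Cacna1i also outside, where 99.3% and 93.2% of all tested probes were inside. The median SD over replicates was 0.174 for the members and 0.145 for all tested probes. Spread went with dimness: the 19 members with the lower signal over background had a median SD of 0.205 and the 19 with the higher a median of 0.153. The members' ratios scattered more widely in replicate 3, which had a single pair, with an SD across members of 0.323 against 0.184 in replicate 1 and 0.17 in replicate 2. All tested probes showed a like pattern (0.30 against 0.191 and 0.152). Across the 38 members the ratios correlated weakly or not at all. The correlation was 0.369 between replicates 1 and 2, 0.183 between 1 and 3 and -0.0712 between 2 and 3. Between the repeat pairs it was 0.164 in replicate 1 (18 members) and 0.25 in replicate 2 (19 members).

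**Figure D2:**
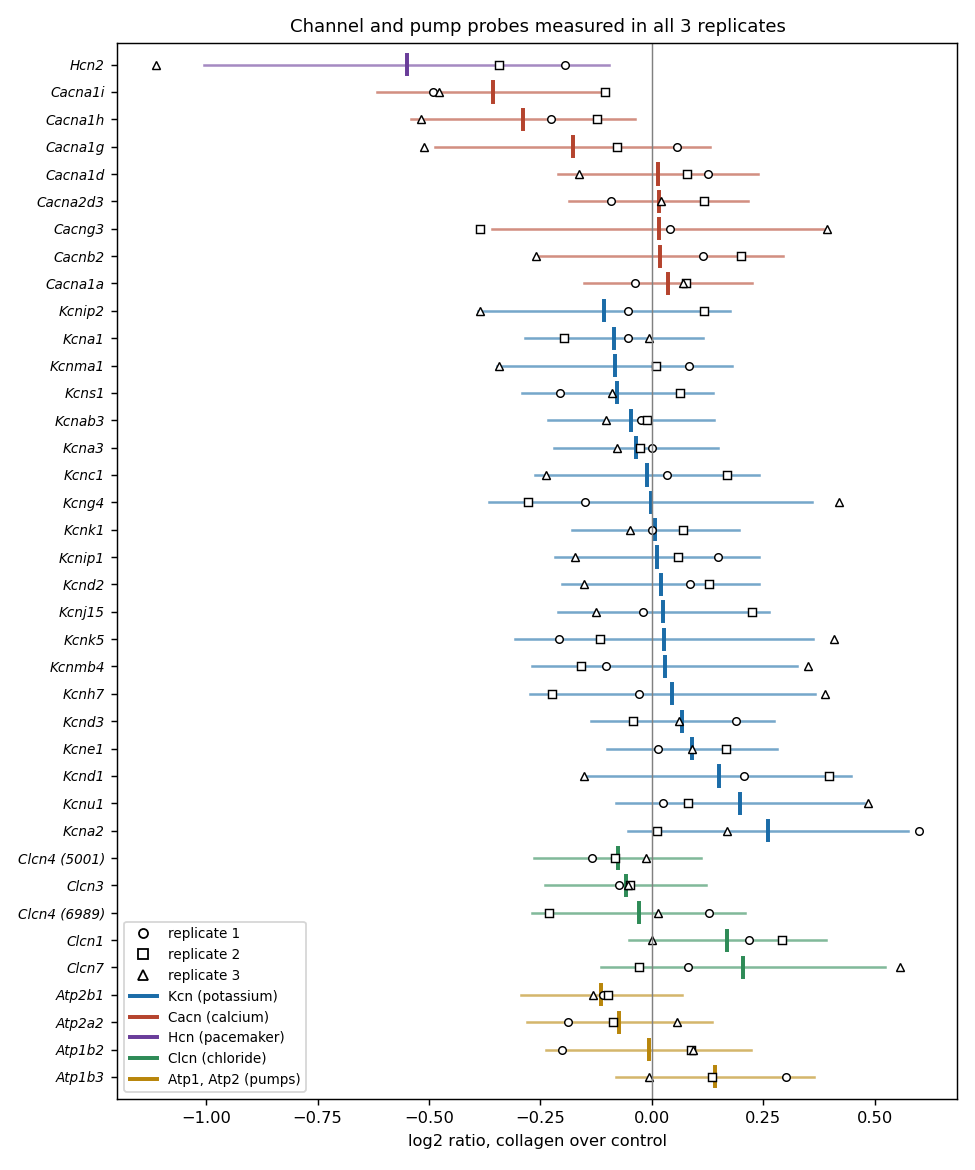
Log2 ratio of collagen over control (horizontal axis) of the 38 channel and pump probes measured in all 3 replicates, grouped by name. Open symbols are the replicates, the thick tick is their mean and the line its 95% interval from limma. Hcn2, Cacna1i and Cacna1h are the only probes whose interval leaves out 0, none of them past the adjusted threshold, and the triangle of replicate 3 often lies away from the other symbols.

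Hcn2 encodes the Hcn channel most widely expressed in brain. Its replicates stood at -0.20, -0.34 and -1.11, a mean of -0.55 ± 0.49 (SD, n = 3) or 0.683 times the control level, with a 95% interval of -1.01 to -0.10 and a limma adjusted p = 0.827. All 3 replicates were lower, but the value of replicate 3 was far below the other two, and without it the mean was -0.27. Its size also depended on the normalisation, with -0.28 without background correction, -0.27 with median centring and -0.29 with print-tip loess. Hcn2 was not tested with the first or last scan alone, with both channels at least at background, or without the dimmest probes. Being at least at background here means a background-corrected signal no smaller than the local background. Nor was it tested in the authors' value table. On single arrays the ratio was below 0 on 7 of 10. The dye-swap pairs stood at -0.28 and -0.11 in replicate 1, at -0.11 and -0.57 in replicate 2 and at -1.11 in replicate 3. All 5 pairs were thus lower, although in the second pair of replicate 1 the arrays gave -0.86 and 0.63. Of the 17 members with all 5 pairs, 4 were lower in every pair (Hcn2, Cacna1i, Cacna1h and Kcna1) and 0 higher, where 8.2% of all tested probes with 5 pairs were lower in every pair and 0.984% higher. Hcn3, the other Hcn gene on the array, had a ratio of -0.27 in replicate 1 alone.

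Calcium channels of the T type open near the resting potential and support burst firing. Their 3 pore genes, Cacna1g, Cacna1h and Cacna1i, had the lowest ratios among the 8 calcium channel probes tested. Cacna1i stood at -0.49, -0.11 and -0.48 in the 3 replicates, a mean of -0.36 ± 0.22 (SD, n = 3; 95% interval -0.62 to -0.10, limma adjusted p = 0.827). Cacna1h stood at -0.23, -0.12 and -0.52, a mean of -0.29 ± 0.21 (95% interval -0.54 to -0.04, limma adjusted p = 0.827). Both were lower in every replicate and every pair, though in Cacna1i the pairs of replicate 1 gave -0.15 and -0.83. Single arrays were split by dye. Those of Cacna1i with collagen in Cy5 lay between -1.001 and -0.36, and those with collagen in Cy3 between -1.29 and 0.64, 4 of 5 above 0. For Cacna1h the ranges were -0.10 to 0.39 and -0.94 to -0.25. Cacna1g stood at 0.06, -0.08 and -0.51, a mean of -0.18 ± 0.30 (limma adjusted p = 0.827). Its replicates lay on both sides of 0, and without replicate 3 the mean was -0.01. Print-tip loess, which normalises each printing block by itself, brought Cacna1i to -0.12 and Cacna1h to -0.15, and median centring turned Cacna1g to 0.08. With normexp background correction Cacna1i stood at -0.56 and Cacna1h at -0.47. In the authors' value table, whose scale is unstated, Cacna1i stood at -0.0338, Cacna1h at -0.0445 and Cacna1g at -0.00894. Cacna1h stood at -0.09 with the first scan of each array alone and at -0.175 without replicate 3. None of the 3 genes was tested with both channels at least at background, and Cacna1h was not tested without the dimmest probes. Over all alternatives that kept the dye turning, Cacna1g ran from -0.295 to 0.08.

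Markers of other tissue and cell types were measured on the same arrays. All 4 tested genes of the cerebellum list were lower, with a median of -0.26, namely the transcription factor genes Zic4 at -0.40, Neurod1 at -0.38 and Zic1 at -0.15, and Cbln1 at -0.03. None passed the test (limma adjusted p = 0.827 for Zic4 and Neurod1), and 2 genes of that list with a probe had no ratio in all replicates. Zic4 was lower in all replicates, at -0.26, -0.43 and -0.50. Over all marker lists 26 genes were tested, 9 higher and 17 lower, with 0 past the test, where 59.2% of all tested probes were lower. The neuron markers were lower in 4 of 6 and the microglia markers in 3 of 4. The dopamine neuron markers were higher in 3 and lower in 3, with a median of 0.08. Higher were Th at 0.35 ± 0.47, En1 at 0.21 and Ddc at 0.18. Lower were Nr4a2 at -0.11, Pitx3 at -0.09 and En2 at -0.01. Th stood at 0.03, 0.13 and 0.88 in the 3 replicates (limma adjusted p = 0.827). The choroid plexus markers lay on both sides, Kl at 0.14 and Igf2 at -0.25. Their part in the ratios of Hcn2 and the T-type genes was not tested.

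**Figure D3:**
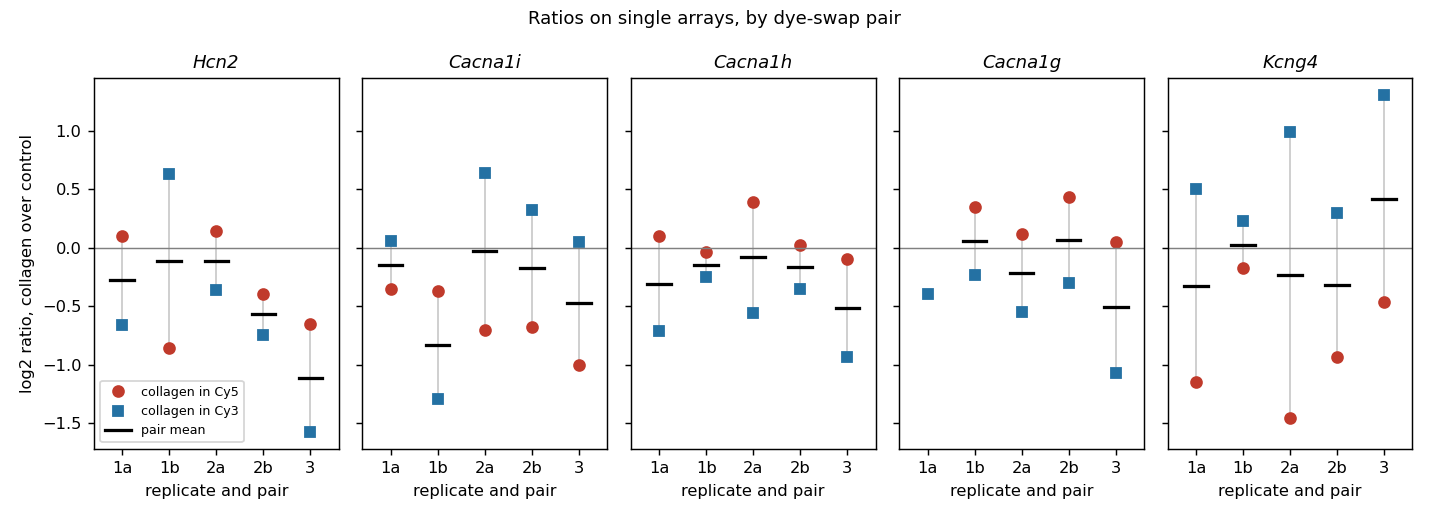
Log2 ratio of collagen over control (vertical axis) on each array for Hcn2, the T-type calcium channel genes and Kcng4. Pairs 1a and 1b belong to replicate 1, 2a and 2b to replicate 2 and 3 to replicate 3. Circles are arrays with the collagen RNA in Cy5, squares arrays with it in Cy3 and black ticks the pair means. In Kcng4, Cacna1h and Cacna1g the circles lie on one side of the squares in every complete pair.

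The other calcium channel probes lay close to 0. Cacna1a, the P/Q-type pore of presynaptic terminals, stood at -0.04, 0.08 and 0.07 (mean 0.04 ± 0.06). Cacna1d, an L-type pore that takes part in the pacemaking of dopamine neurons, stood at 0.13, 0.08 and -0.16 (mean 0.01 ± 0.16). Both spanned 0, with means well inside their spread. The auxiliary subunit genes Cacnb2 and Cacna2d3 had means of 0.02 each, and Cacng3, whose protein is best known as a partner of AMPA receptors, had 0.02 with replicates from -0.38 to 0.39. Of the calcium channel probes not tested, 5 had ratios in 2 replicates. Cacna1f, an L-type pore of the retina, stood at 0.15 and 0.14 and Cacng2, another partner of AMPA receptors, at -0.13 and -0.04, each in replicates 1 and 2.

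Of the 20 potassium channel probes tested, 12 had a mean above 0 and 8 below, with a median of 0.02 and a range of -0.11 to 0.26. The voltage-gated genes of the Kv1 family did not move as one. Kcna2 stood at 0.60, 0.01 and 0.17, a mean of 0.26 ± 0.30 (95% interval -0.05 to 0.58, limma adjusted p = 0.827). All 3 replicates were higher, but replicate 1 made up most of the mean, and each replicate rested on 1 pair, since the probe gave a ratio on 7 of 10 arrays. Kcna1, which joins Kcna2 in axonal channels, stood at -0.05, -0.20 and -0.01 (mean -0.09 ± 0.10), and Kcna3 at -0.0003, -0.03 and -0.08 (mean -0.04 ± 0.04). Both were below 0 in all replicates, by little. Kcnab3, an auxiliary beta subunit of this family, had a mean of -0.05 ± 0.05.

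The genes of the A-type current, which delays firing after a depolarisation, lay on both sides of 0. Kcnd1 stood at 0.21, 0.40 and -0.15, a mean of 0.15 ± 0.28. Its pore-forming relatives Kcnd2 and Kcnd3 had means of 0.02 ± 0.15 and 0.07 ± 0.12. Of their cytosolic partners, Kcnip1 stood at 0.01 ± 0.17 and Kcnip2 at -0.11 ± 0.26. Each of these 5 means was smaller than its SD. Kcnip4, a further partner, had ratios of 0.24 and 0.04 in replicates 2 and 3. A second Kcnip1 probe, not tested, stood at 0.21 and 0.02 in replicates 1 and 2.

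Other potassium channels gave ratios within their spread, apart from the auxiliary subunit gene Kcne1, which was higher in all replicates at 0.01, 0.17 and 0.09 (mean 0.09 ± 0.08, limma adjusted p = 0.831). Each Kcne1 replicate rested on 1 pair, and in every pair the arrays had opposite signs. They gave -0.14 and 0.17 in replicate 1, -0.10 and 0.43 in replicate 2, and 0.36 and -0.18 in replicate 3. Kcnc1, a channel of fast-spiking neurons, had a mean of -0.01 ± 0.21. The calcium-activated channel gene Kcnma1 had -0.08 ± 0.23 and Kcnmb4, its auxiliary subunit of the brain, 0.03 ± 0.28. A second Kcnma1 probe, not tested, stood at -0.09 and -0.21 in replicates 1 and 2. Of the tandem-pore genes, which carry leak current, Kcnk1 stood at 0.01 ± 0.06 and Kcnk5 at 0.03 ± 0.33. Kcnu1, known as a sperm channel, stood at 0.02, 0.08 and 0.48 (mean 0.20 ± 0.25), with replicate 3 far above the other two. Signal over background was the background-corrected signal of the dimmer channel over the local background, as the median over arrays. Of the tested members, Kcnu1, Kcne1, Kcnd1, Kcnk5, Cacna1a, Cacng3 and Clcn1 had a corrected signal smaller than their local background, from 0.674 times in Kcnd1 to 0.833 times in Kcnu1. The uncorrected spots were thus still brighter than their background. Kcnk5, Kcnh7 and Kcnmb4 had replicate 3 at 0.35 to 0.41 and both other replicates below 0.

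Among the chloride family Clcn1 encodes a channel best known in muscle, and the others tested are exchangers of endosomes and lysosomes. Clcn7 had a mean of 0.20 ± 0.31, of which replicate 3 gave 0.56 and the others 0.08 and -0.03. A second Clcn7 probe, not tested, stood at -0.46 and 0.18 in replicates 1 and 2, so the probes of this gene had opposite signs in both replicates that they share. Clcn1 stood at 0.22, 0.29 and 0.001 (mean 0.17 ± 0.15). Clcn3 was the steadiest of the family over replicates, at -0.07, -0.05 and -0.05 (mean -0.06 ± 0.01, limma adjusted p = 0.872). Its single arrays were not steady. Each replicate rested on 1 pair with arrays of opposite signs: -0.18 and 0.03 in replicate 1, -0.17 and 0.07 in replicate 2, and 0.16 and -0.27 in replicate 3. An array of replicate 1 without its dye swap, at -0.56, was left out. The 2 tested probes of Clcn4 gave means of -0.08 ± 0.06 and -0.03 ± 0.18, with replicates of one sign in the former and of both signs in the latter.

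None of the 4 pump probes tested was called, and their median SD over replicates, 0.138, was close to that of all tested probes. Atp2b1 encodes a plasma membrane pump that removes calcium from the cell. It stood at -0.11, -0.10 and -0.13, a mean of -0.11 ± 0.02 (95% interval -0.29 to 0.07, limma adjusted p = 0.827), lower in all 3 replicates. That closeness did not extend to single pairs, which ranged from -0.23 to 0.01. Atp2a2, which pumps calcium into the endoplasmic reticulum, stood at -0.19, -0.09 and 0.06 (mean -0.07 ± 0.12). Of the sodium pump's auxiliary beta subunits, Atp1b3 stood at 0.30, 0.13 and -0.01 (mean 0.14 ± 0.15) and Atp1b2, the glial form, at -0.20, 0.09 and 0.09 (mean -0.01 ± 0.17). Neither kept 1 sign over the replicates.

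The 32 probes with a ratio in 2 replicates were not tested. In 10 of them both replicates were higher, in 7 both were lower and in 15 they had opposite signs, and replicate 3 was the missing one in 27. Kcnk10, a tandem-pore channel gene, was the lowest of those with both replicates below 0, at -0.64 and -0.48 in replicates 1 and 2, but the pairs of replicate 1 gave -1.37 and 0.09. Of the sodium channel genes of central neurons, Scn1a stood at -0.13 and 0.04, Scn2a at 0.04 and -0.15 and Scn3a at 0.21 and -0.06, each with opposite signs. Scn10a, a channel gene known from sensory neurons of pain, stood at -0.10 and -0.45. Of the TRP genes, Trpc1 stood at -0.002 and 0.06, Trpv6 at -0.02 and 0.06, Trpm1 at 0.18 and 0.08 and Trpc7 at 0.43 and 0.03, all in replicates 1 and 2.

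Genes that work with these channels and pumps were counted from a list of 54. Of these, 29 had a probe and 15 were tested, 4 higher and 11 lower, with a median of -0.07, and 0 passed the test. Of all tested probes 59.2% were below 0, with a median of -0.025. Of the sodium pump regulators, Fxyd7, which acts in brain, stood at -0.14 ± 0.15, Fxyd1 at -0.15 ± 0.21 and Fxyd5 at 0.30 ± 0.68, the last through replicate 1 at 1.08. The sodium-calcium exchanger gene Slc8a1 stood at 0.04 ± 0.18. Pex5l, whose protein steers Hcn channels within neurons, stood at -0.11 ± 0.29. Atp13a2, a lysosomal cation-transporting ATPase, stood at -0.24 ± 0.09 with all replicates lower, and Clic4 at -0.10 ± 0.03. The intracellular calcium release channels (Ryr and Itpr genes, 3 with a probe) included no tested gene. All 6 midbrain dopamine neuron markers with a probe were tested, among them Th, the enzyme that makes the dopamine precursor, and Pitx3, a transcription factor of these neurons.

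The same arrays also gave the ratio of channel B over channel A, without turning by the dyes. It shows how far a probe followed the channel and not the RNA. Of the 38 members 1 passed this test, Kcng4, beside 1.33% of all tested probes (55 of 4139). Kcng4 encodes a modulatory subunit that forms potassium channels only together with other subunits. It was dimmer in channel B in every replicate, at -0.51, -0.92 and -0.88 (mean -0.77 ± 0.23, SD, n = 3; limma adjusted p = 0.0448). Turned to collagen over control, its arrays lay on opposite sides of 0 by dye: all 5 with collagen in Cy5 lay between -1.46 and -0.18 and all 5 with collagen in Cy3 between 0.23 and 1.30, and the mean was -0.003 ± 0.37. The call depended on the setting. Without replicate 1 the adjusted p was 0.000209, with the replicate block on single arrays 0.0111, with both channels at least at background 0.0134 and without the dimmest probes 0.0202. Without replicate 2 the adjusted p was 0.183 and without replicate 3 it was 0.0628, and it was 0.119 with normexp correction, 0.194 with median centring, 0.0625 with the first scan alone, 0.0557 with the last and 0.0607 with probes in at least 2 replicates.

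Channel ratios of Cacna1h and Cacna1i were of like size to their treatment ratios, and that of Cacna1g was larger. Cacna1g stood at 0.40 ± 0.14 and Cacna1h at 0.33 ± 0.08 for channel B over A, and Cacna1i at -0.33 ± 0.39, none past the test (limma adjusted p = 0.145, 0.165 and 0.323). Kcnd1 stood at 0.40, and the untested second probe of Kcnma1 at -1.57 and -1.04 in replicates 1 and 2. If the channel letters followed the RNA and not the dye, so that B held collagen throughout, these would be the treatment ratios, Kcng4 would be the 1 member called, and Cacna1g, Cacna1h and Hcn2 (0.17) would be higher and not lower. The scores in the authors' value table turned with the dye labels. They correlated with channel B over A positively with collagen in Cy5 and negatively with it in Cy3, on all 10 arrays.

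**Figure D4:**
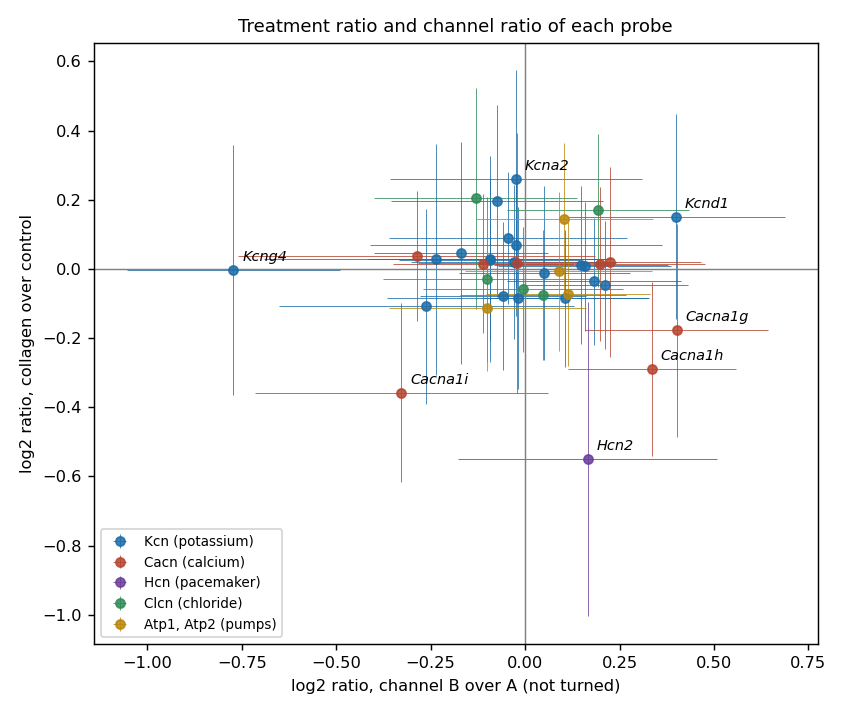
Treatment ratio (vertical axis, log2 collagen over control) against channel ratio (horizontal axis, log2 channel B over A) of the 38 tested channel and pump probes, with 95% intervals from limma. Kcng4 stands alone at the left at a treatment ratio of -0.003, and Cacna1g and Cacna1h lie right of 0 on the channel axis while Cacna1i lies left of it.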

How the data were processed

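The deposited scanner files (29 for 10 arrays, as repeat scans) hold, per the file headers, spot intensity in channels A and B corrected for background by the authors, the local background and a saturation factor, a fraction between 0 and 1. The authors' value table gives each probe a score on each array, whose scale, log base and direction are unstated. Its column medians lie between -0.00862 and 0.00332, and it served as an alternative. Software and genome build are not given in the sources used here. Spots were matched to probes in printing-block order, in which the value table correlated with the log ratios at 0.67 to 0.835 in size (at most 0.0966 in slide order).

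Spots were used unless either channel was at or below 0 or bore a flag X, Y or Z. Log2 ratios were normalised within each scan by loess (span 0.3, 4 iterations), averaged over scans, turned to collagen over control and averaged first within dye-swap pairs (complete ones only), then within replicates. The mean of 3 replicates was tested against 0 with limma 3.58.1 (R 4.3.3; lmFit and eBayes, two-sided, Benjamini-Hochberg over 4139 probes), after a test on simulated data. Symbols came from the platform table (9066 probes with 1 symbol, 12 with several, 1002 unnamed), and 0 members needed an updated one. The number of arrays limits the precision. Genes were described in full by rule: the 3 largest ratios of each name group, the 5 lowest p, Hcn2, and any probe past a test. Other members were named by their role, after their values were seen. The members and lists were chosen with earlier results of these data known.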

Additional observations from a re-analysis of the deposited data

How the results depend on the processing

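Over 20 alternatives the count of changed probes stayed at 0, and so did that of called channel and pump probes. The exception was the reading with fixed channel letters (B as collagen throughout), which gave 55 probes and 1 member. The members' median of 0.01 stayed within 0.0149 (1 SD of the replicate medians) except for -0.0151 with normexp, -0.0238 with print-tip loess, -0.00915 with scaling between arrays, -0.0113 with the first scan alone, -0.00616 with the last, -0.0117 with both channels at least at background, -0.00879 without the dimmest probes (33.3%), -0.0202 with fixed channel letters and -0.00894 in the authors' value table. With a replicate left out it ran from -0.0318 to 0.000757. The 13 of 38 members of one sign became 6 of 30 with the first scan alone, 8 of 31 with the last and 2 of 8 with both channels at least at background. They became 7 of 24 without the dimmest probes, 30 of 70 with at least 2 replicates and 7 of 31 in the value table. With a replicate left out, where 2 signs need to agree, there were 17 to 27 of 38 (20 without replicate 2, 27 without replicate 3). The count was not made for fits on pairs or arrays. The 38 measured members became 8 with both channels at least at background and 70 with at least 2 replicates. The 55 probes with a channel effect became 0 with normexp, 0 with median centring, 83 with scaling between arrays, 13 with the first scan alone, 96 with 5 pairs, 90 with the trended prior and 28 to 218 with a replicate left out (218 without replicate 1, 28 without replicate 2, 90 without replicate 3). With the replicate number as a block on single arrays there were 330 (consensus correlation 0.0365), 392 without the block, and 0 changed probes either way. Members with a channel effect numbered 3 with the block and 3 without it, beside 1 in the main fit. They numbered 2 without replicate 1, and 0 with normexp, median centring, the first or last scan alone, at least 2 replicates, or without replicate 2 or 3. Beyond the smaller or larger number of replicates and probes these settings use, the cause was not tested. Among 275 values for 15 named probes under alternatives, 255 moved by under 1 SD over replicates and 20 by 1 SD or more. In a separate count, 20 of the 275 changed sign, 8 of them with fixed channel letters and 1 in the value table. Signal near background limited which members were measured.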

Other observations

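Atp1b4, a protein of the beta-subunit family of the sodium pump, had the most extreme ratio among the channel and pump probes, -2.54 in replicate 1, against 0.33 in replicate 3. The value of replicate 1 rested on 1 pair, in which the array with collagen in Cy5 gave -4.76 and its dye swap -0.33. The other array of replicate 1 with a ratio gave -0.24, and the probe's background-corrected signal in the dimmer channel was 0.582 times its local background. Repeat pairs within a replicate differed, in the median over members, by 0.219 in replicate 1 (18 members) and by 0.194 in replicate 2 (19 members). Over the 38 tested members the median size of the difference was 0.121 between replicates 1 and 2, 0.281 between 1 and 3 and 0.263 between 2 and 3. In a screen of 14 sets of 5 arrays (member counts, medians, SDs and the ratios of Hcn2, Cacna1h, Cacna1i and Kcng4, by dye orientation), 0 passed Dixon's critical value for the gap of 1 array to the rest. The widest gap, 0.694 of the range, was that of Cacna1i with collagen in Cy3, where 1 array stood at -1.29 and the others between 0.05 and 0.64.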
